A study of Mus musculus with 10 samples.

Results

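Horizontal cell markers were followed in RNA of mouse retina as 8 genes chosen by symbol, Calb1, Lhx1, Onecut1, Onecut2, Prox1, Sept4, Gja10 and Ndrg1. All 8 were found among the 19999 genes of the deposited count table, and all 8 passed the filter on low counts with 16852 genes tested. The 10 libraries fall into 2 groups of 5, controls and retinas in which damage was induced by light, all from the albino mouse strain BALB/c. The word vehicle stands in the names of libraries from either group, and libraries of the compound A74, which the design text names, were not analysed here. Light dose, time after exposure, age and sex are not given in the labels. The labels do not say whether each library is a separate animal, and the p-values therefore rest on a spread between libraries that may be technical.

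Horizontal cells are inhibitory interneurons of the outer retina. Their dendrites reach into the terminals of rods and cones, receive glutamate and send inhibition back, and gap junctions join neighbouring cells into a wide network. Onecut1 and Onecut2, paired cut-homeodomain transcription factors, and Prox1 act while the cells are specified, and Lhx1, a LIM homeodomain factor, guides them to their layer and persists in the adult. The list is not exclusive. Calb1, the calcium buffer calbindin, also labels amacrine and ganglion cells, Prox1 is present in AII amacrine cells and in lens fibres, Onecut factors are present in ganglion cells, and Ndrg1, a gene raised by hypoxia, is expressed in many cell types. In bulk RNA the reads of these sources are pooled, and fewer cells of a type cannot be told apart from less RNA per cell.

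The promoters of the markers differed in base composition. RefSeq windows (build GRCm38.p6) were found for 5 of the 8 genes, with 9 start sites in all. Calb1, Ndrg1 and Onecut2 had no window in use. The stretches below are the 250 bases before a start, 5′ to 3′, with each CG dinucleotide in capitals. They were chosen to show the connexin gene, the adult transcription factor and the called gene that had a window.
Gja10, chr4:32602383-32602632, minus strand: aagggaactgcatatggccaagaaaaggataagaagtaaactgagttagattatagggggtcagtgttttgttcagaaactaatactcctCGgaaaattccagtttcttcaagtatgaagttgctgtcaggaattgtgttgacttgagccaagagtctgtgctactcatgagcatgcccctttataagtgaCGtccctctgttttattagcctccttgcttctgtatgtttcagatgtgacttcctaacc
Lhx1, chr11:84525535-84525784, minus strand: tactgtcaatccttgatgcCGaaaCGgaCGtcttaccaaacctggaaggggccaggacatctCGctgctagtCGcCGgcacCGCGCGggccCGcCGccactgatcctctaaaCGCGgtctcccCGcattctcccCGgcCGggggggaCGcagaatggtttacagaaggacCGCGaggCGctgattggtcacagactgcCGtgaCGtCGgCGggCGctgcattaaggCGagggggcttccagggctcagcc
Sept4, chr11:87580811-87581060, plus strand: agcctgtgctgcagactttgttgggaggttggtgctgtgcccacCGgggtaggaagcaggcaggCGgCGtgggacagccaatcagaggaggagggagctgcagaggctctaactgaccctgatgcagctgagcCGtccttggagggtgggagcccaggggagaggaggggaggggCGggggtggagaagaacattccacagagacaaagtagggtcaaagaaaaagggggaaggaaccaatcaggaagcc
The Gja10 window held 2 CG dinucleotides, the Lhx1 window 26 and this Sept4 window 5. The other Sept4 windows, of which those with 8 and 9 overlap each other, held 1, 8 and 9. Over 32851 windows of the same length the median was 6. The Onecut1 window held 31, the most among the 9, and the Prox1 windows 20 and 11. A set of 3 short motifs were searched on both strands. ATCNAT, a core bound by Onecut factors, was in 0 of the 9 windows and in 18.9% of all windows. TAATNA, a homeodomain core whose ends can overlap those of ATCNAT, was in 1 of the 9, that of Gja10, and in 24.3% of all. ACGTG, the core of hypoxia response elements and part of the E-box CACGTG, was in 1 of the 9, that of Onecut1, and in 16.6% of all. These are letter matches in a short window and were not tied to binding.

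The libraries were not alike. Library totals lay between 17900227 and 20337329 counts in light damage and between 14652535 and 20699236 in control. Xist, the noncoding RNA of the inactive X chromosome, had 17174 and 20414 counts in light damage replicates 1 and 2 and between 1 and 9 elsewhere. By Xist the sexes may thus be unevenly divided between the groups, as no control had such counts. The same libraries held lens RNA, with a summed level of 9 lens markers of 7520 and 4015 CPM (CPM being the count scaled to the library total, with TMM factors). The other light damage libraries had sums of 21.4 to 118 CPM, and the controls 3.28 to 31.4 CPM. Markers of rods, the main cell type of the retina, summed to at least 61723 CPM in every library, as the tissue label says. Results are therefore also given without light damage replicates 1 and 2.

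Of the 8 markers, Calb1 and Sept4 rose in light damage by edgeR's quasi-likelihood test at a Benjamini-Hochberg adjusted p under 0.05, and 0 fell. Among all genes tested 5.32% were called higher and 7.85% lower. At an unadjusted p under 0.05, 3 markers were higher and 0 lower, against 14% and 16.3% of all genes. DESeq2 and limma-voom each also called 2 markers, both higher, against 7.7% of all genes higher, 9.44% lower and 17.1% in either direction with DESeq2 and 4.77%, 7.15% and 11.9% with limma-voom. Over both directions edgeR called 13.2% of all genes. The fold change was positive for 6 of the 8 markers, against 50.3% of all genes, and its median on the log2 scale was 0.21, against 0.0016 over all genes. Medians of other cell types are given further below. Without light damage replicates 1 and 2 the median over the markers was 0.20, and 0 of 8 were called by edgeR, with 0.782% of all genes called higher, 1.55% lower and 2.34% in either direction. At an unadjusted p under 0.05, 2 were counted as higher in that fit, against 8.99% of all genes. The factors of the horizontal cell lineage were not among the called markers.

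**Figure D1:**
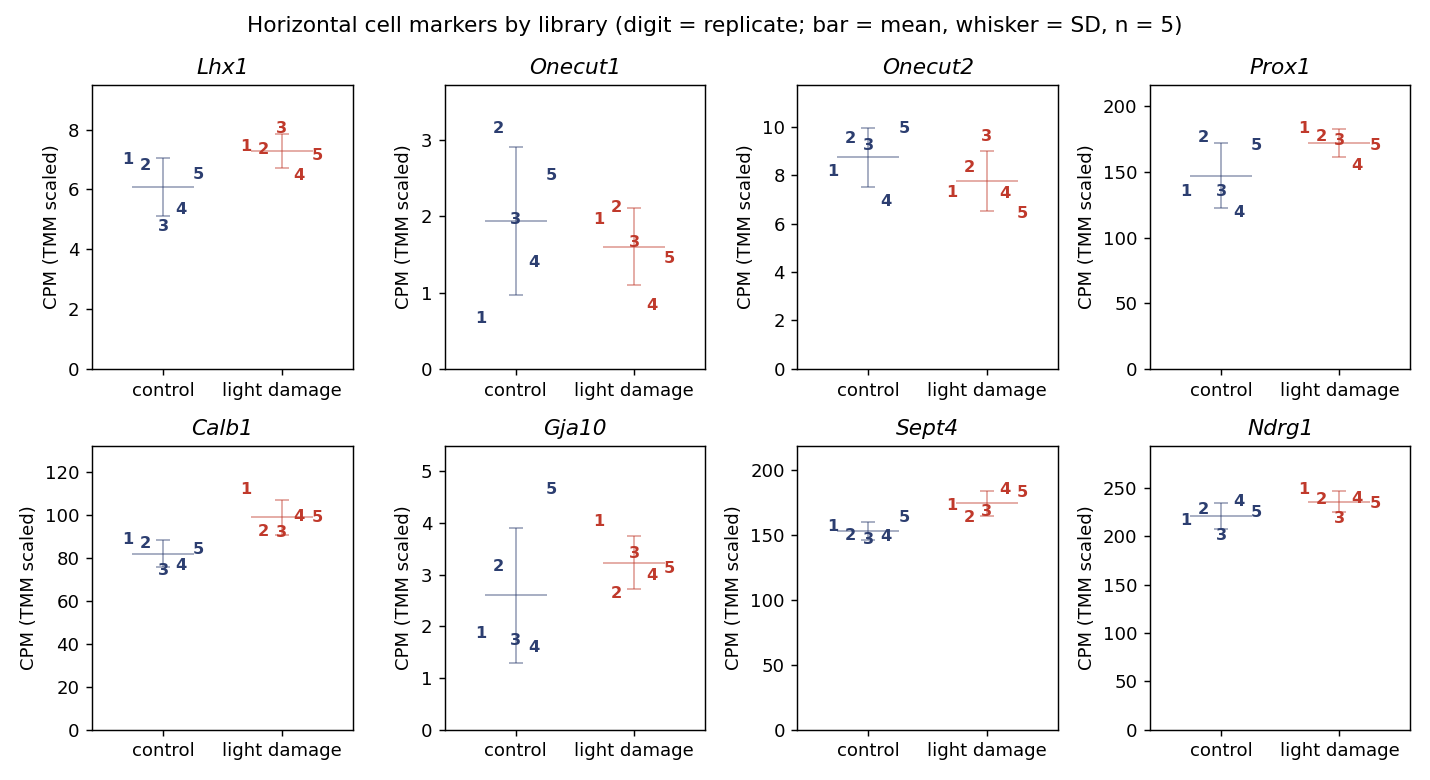
Level of each marker in CPM, scaled by TMM, with a linear axis from 0. Digits mark the replicate number of each library, horizontal bars the mean and whiskers the SD (n = 5 per group). All light damage digits lie above all control digits for Calb1 and, by a margin of 163.7 against 163.5 CPM, for Sept4.

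Lhx1 was detected at low level in every library, with 84 to 170 counts. It stood at 7.44, 7.34, 8.05, 6.48 and 7.12 CPM in light damage replicates 1 to 5 and at 6.99, 6.82, 4.77, 5.33 and 6.51 CPM in control replicates 1 to 5. Light damage libraries were mostly higher, 4 of 5 above the highest control, but replicate 4 fell within the control range. By edgeR's quasi-likelihood test the log2 fold change was 0.26 (SE 0.13), which did not pass at an adjusted p of 0.183. Its 95% interval, from -0.01 to 0.53, reached an increase of 44.9%.

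Onecut1 and Onecut2 had negative fold changes that did not pass. Onecut1 had 13 to 49 counts per library. Its level was 1.96, 2.12, 1.66, 0.831 and 1.45 CPM in light damage and 0.654, 3.15, 1.95, 1.395 and 2.54 CPM in control. The controls alone spanned the whole range, from replicate 1 at the bottom to replicate 2 at the top. The exact Poisson 95% intervals of these 2 libraries were 0.348 to 1.12 and 2.33 to 4.17 CPM, so they differed by more than counting error. The log2 fold change was -0.25, with an interval from -0.9996 to 0.50 (SE 0.35, edgeR quasi-likelihood adjusted p = 0.664), wide enough to hold a fall of 50.0% or a rise of 41.0%. Over all alternative fits it ran from -0.53, without light damage replicates 1 and 2, to -0.01, without control replicate 2.

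Onecut2 was at 7.27, 8.32, 9.61, 7.26 and 6.40 CPM in light damage and at 8.15, 9.52, 9.22, 6.91 and 9.94 CPM in control. The groups overlapped, and 1 of 5 light damage libraries lay above the control median. By edgeR's quasi-likelihood test its log2 fold change was -0.17 (SE 0.13) with an adjusted p of 0.415 and an interval from -0.45 to 0.11. It was -0.26 without light damage replicate 3 and -0.10 without light damage replicate 5. Onecut3, the remaining gene of this family, did not pass either, with a mean of 7.23 ± 0.445 CPM after light damage and 6.27 ± 1.599 CPM among controls (SD, n = 5 each). Reads shared between these paralogs may have been divided by the counting, so the split between them is uncertain.

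Prox1, a homeobox factor, was the transcription factor of the list with the highest level. It stood at 183, 177, 174, 155 and 170 CPM in light damage and at 135, 176, 135, 119 and 170 CPM in control. Control replicates 2 and 5 lay among the light damage libraries, and control replicates 1, 3 and 4 lay below all of them. The log2 fold change of 0.22 (SE 0.10) did not pass (edgeR quasi-likelihood adjusted p = 0.134). It passed without control replicate 2, with a log2 fold change of 0.30 and adjusted p = 0.0441 (edgeR). Lens fibres express Prox1, and the lens-rich light damage replicates 1 and 2 were the highest of the 10 libraries, while the part of lens RNA in this was not tested. Without them its log2 fold change was 0.18 (adjusted p = 0.403, edgeR).

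Calb1, the calcium buffer by which horizontal cells are usually stained, rose. It was at 112, 92.4, 91.9, 99.3 and 98.6 CPM in light damage and at 88.4, 86.4, 74.3, 76.2 and 84.0 CPM in control. Every light damage library lay above every control, with replicate 1 the highest of all. Such a separation was seen in 4.31% of all genes. The log2 fold change was 0.27, an increase of 20.7% with a 95% interval from 9.39% to 33.2% (SE 0.07, edgeR quasi-likelihood adjusted p = 0.0160). The call was lost without light damage replicate 1, at 0.22 with an adjusted p of 0.0539 by edgeR. Without light damage replicates 1 and 2 the log2 fold change was 0.24 and the adjusted p 0.101 (edgeR).

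Sept4, a septin also called Septin4 that belongs to a family of filament-forming GTPases, rose as well. It was at 173, 163.7, 168, 186 and 183 CPM in light damage and at 157, 150, 146, 149 and 163.5 CPM in control. The groups were separated only by the small gap between light damage replicate 2 and control replicate 5. The log2 fold change was 0.19, an increase of 14.1% with an interval from 5.09% to 23.8% (SE 0.06, edgeR quasi-likelihood adjusted p = 0.0355). Leaving out 1 library at a time ended the call in 7 of 10 cases. The edgeR adjusted p was 0.0729, 0.0554, 0.0818 and 0.0657 without light damage replicates 1, 3, 4 and 5, and 0.0611, 0.0733 and 0.0571 without control replicates 2, 3 and 4. Without light damage replicates 1 and 2 together the log2 fold change was 0.23, with an adjusted p of 0.0971 (edgeR).

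**Figure D2:**
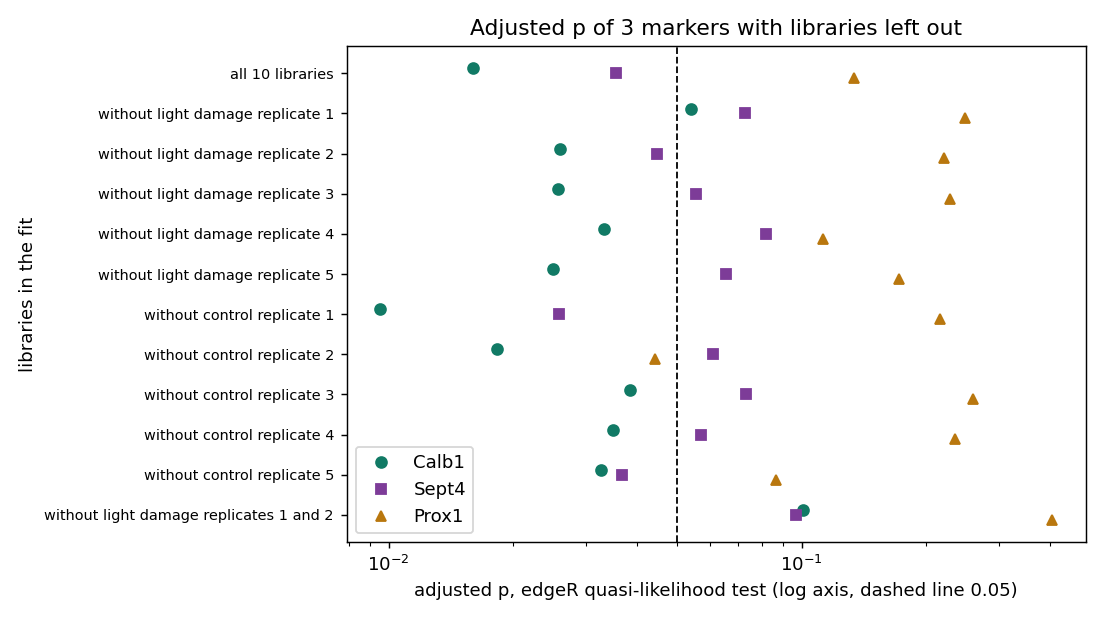
Adjusted p of Calb1, Sept4 and Prox1 by edgeR's quasi-likelihood test on a log axis, with all 10 libraries and with libraries left out. The dashed line marks 0.05. Calb1 crosses it without light damage replicate 1 (0.0539), Sept4 in 7 of 10 cases, and Prox1 falls under it without control replicate 2 (0.0441).

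Gja10 encodes connexin-57, the gap junction protein of horizontal cell dendrites. It had 25 to 72 counts per library. Its level was 4.03, 2.64, 3.41, 2.99 and 3.12 CPM in light damage and 1.86, 3.15, 1.74, 1.59 and 4.66 CPM in control. Light damage libraries lay close together, inside a control range set by replicate 4 at the bottom and replicate 5 at the top. The Poisson intervals of those controls, 1.03 to 2.34 and 3.62 to 5.91 CPM, did not overlap. The log2 fold change was 0.33, with an interval from -0.23 to 0.89 (SE 0.26, edgeR quasi-likelihood adjusted p = 0.419), so a change of this size was not detectable here. Over all alternative fits the value ran from 0.21, without control replicate 4, to 0.64, without control replicate 5.

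Ndrg1 was at 249, 238, 218, 239 and 234 CPM in light damage and at 216, 228, 200.4, 236 and 224 CPM in control. The groups overlapped, and the log2 fold change was 0.09 (SE 0.06, edgeR quasi-likelihood adjusted p = 0.301), with an interval that ended at an increase of 16.2%. It was 0.06 without control replicate 3 and also without light damage replicates 1 and 2. Of 11 tested hypoxia targets 0 were called by edgeR, while DESeq2 called 1 and limma-voom 0. At an unadjusted p under 0.05 by edgeR, 3 were higher and 0 lower, against 14% and 16.3% of all genes. Without light damage replicates 1 and 2, 0 had an unadjusted p under 0.05. The 3 in the main fit were Egln3, Slc2a1 and Pgk1, a glycolytic enzyme. Egln3, a prolyl hydroxylase, averaged 4.70 ± 0.583 against 3.64 ± 0.651 CPM, and the glucose transporter Slc2a1 257 ± 34.1 against 222 ± 24.6 CPM (SD, n = 5 each). Car9, another target, had too few counts to test, with 1 to 30 in light damage and 0 to 5 in control. It stood at 1.68 and 1.499 CPM in the lens-rich light damage replicates 1 and 2 and at or under 0.251 CPM in the other 8 libraries.

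**Figure D3:**
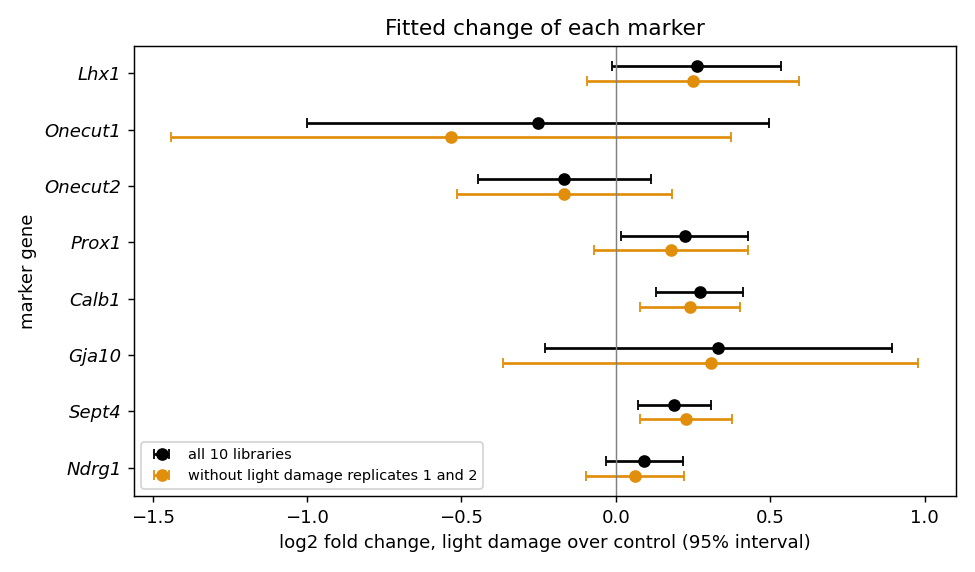
Fitted log2 fold change of light damage over control for each marker, with 95% intervals as whiskers, for all 10 libraries (black) and without light damage replicates 1 and 2 (orange). The intervals of Calb1 and Sept4 lie above 0 in both fits, that of Prox1 in the black fit only, and those of Onecut1 and Gja10 are the widest. These intervals are not adjusted for the number of genes tested.

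Levels of different genes were compared as CPM per kb of the longest annotated transcript, averaged over the 10 libraries. Sept4 was highest at 76.7 (range 68.5 to 86.9) and Ndrg1 next at 56.4 (49.5 to 61.4), and their ranges did not overlap. Calb1 at 21.4 (17.6 to 26.5) and Prox1 at 20.2 (15.1 to 23.2) could not be ordered beyond their spread. Lhx1 at 1.74 (1.24 to 2.09) and Gja10 at 1.38 (0.749 to 2.20) overlapped as well. Onecut2 at 0.509 (0.394 to 0.612) and Onecut1 at 0.447 (0.165 to 0.796) had the lowest means and overlapped each other. The range of Onecut1 also overlapped that of Gja10. Among the transcription factors Prox1 thus lay above Lhx1, Onecut1 and Onecut2 in every library. The length used is that of 1 transcript per gene, and Onecut2, at 16.2 kb, is the longest.

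**Figure D4:**
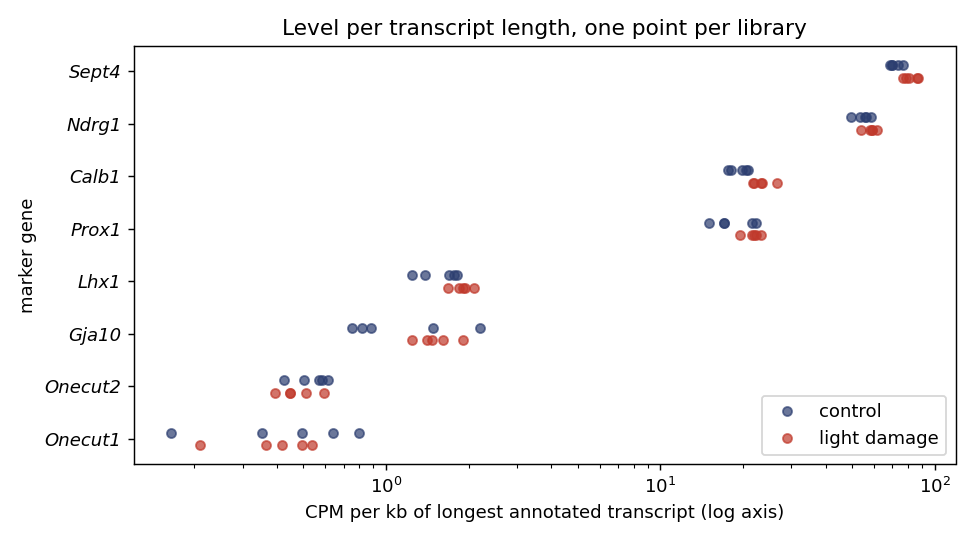
CPM per kb of longest annotated transcript for each marker on a log axis, with 1 point per library. Sept4 and Ndrg1 lie at or above 49.5 in every library, while Lhx1, Gja10, Onecut2 and Onecut1 stay at or under 2.20.

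Several markers differed widely among the controls. On the log2 scale, centred for each gene over the 10 libraries, the mean over the 8 markers was 0.17 and 0.20 in control replicates 2 and 5. It was -0.25, -0.19 and -0.28 in control replicates 1, 3 and 4, and between -0.08 and 0.19 in light damage. Without Onecut1 and Gja10, the genes with the lowest counts, the mean over the other 6 markers was 0.04 in both control replicates 2 and 5 and -0.05, -0.19 and -0.21 in replicates 1, 3 and 4. Gja10, Prox1, Onecut1 and Onecut2 were each highest among the controls in replicates 2 and 5. The range over the controls was 2.09 for Onecut1, 1.49 for Gja10 and 0.56 for Prox1 on the log2 scale, against 1.24, 0.59 and 0.24 over light damage libraries. Calb1 and Sept4 varied less, by 0.25 and 0.16 over the controls. The summed level of 10 rod markers was 83749 and 84447 CPM in control replicates 2 and 5. It was 93657, 66532 and 108093 CPM in replicates 1, 3 and 4, so it lay on both sides of that pair, and its part in the spread of the markers was not tested.

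**Figure D5:**
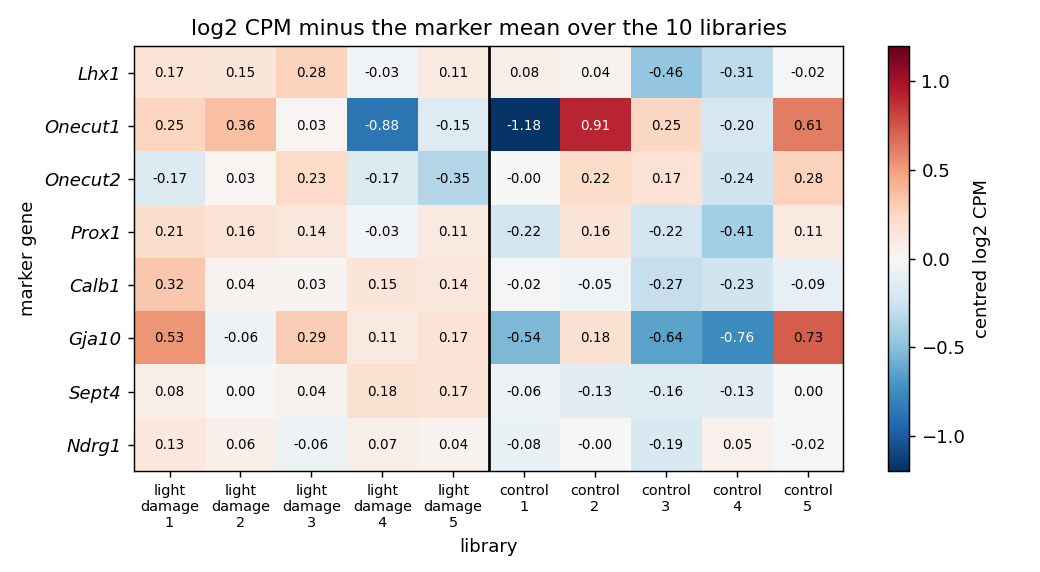
Log2 CPM of each marker minus its mean over the 10 libraries, in rows by gene and columns by library, with red above and blue below the mean and the value printed in each cell. Gja10 runs from -0.76 in control replicate 4 to 0.73 in control replicate 5, while Sept4 stays between -0.16 and 0.18.

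The markers were also set against each other within each library. In 0 of the 28 pairs did the ratio of the markers separate the groups. The log2 ratios of Lhx1 to Onecut2 and of Onecut2 to Prox1 came near. The first ran from -0.25 to 0.15 in light damage and from -0.93 to -0.22 in control. The second ran from -4.71 to -4.16 in light damage and from -4.20 to -3.86 in control. The log2 ratio of Calb1 to Onecut2 overlapped more, from 3.24 to 3.92 in light damage and from 2.99 to 3.44 in control. That of Calb1 to Lhx1 averaged 3.74 ± 0.177 in light damage and 3.74 ± 0.128 in control (SD, n = 5 each). Whether any pair changed differently was not tested.

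Markers of other retinal cells were counted by the same test. Of 12 amacrine markers 4 rose and 0 fell, of 10 bipolar markers 4 rose and 0 fell, and of 11 Müller glial markers 4 rose and 0 fell (edgeR), and at an unadjusted p under 0.05 none of these lists had a lower gene. Over all genes 5.32% were called higher and 7.85% lower. The amacrine genes were Slc32a1, C1ql2, Gad1 and Dab1, with log2 fold changes of 0.25 to 0.35, and the bipolar genes, with 0.19 to 0.47, included Vsx1, Cabp5 and Isl1. The Müller genes were Clu, Dkk3, Rlbp1 and Slc1a3, with 0.31 to 0.66. Without the lens-rich libraries (light damage replicates 1 and 2) the genes called higher numbered 2 amacrine, 2 bipolar and 1 Müller, with 0.782% of all genes called higher. Their summed levels were 1236 to 1384 CPM for amacrine, 1556 to 1771 for bipolar and 5542 to 7821 for Müller markers in light damage. In control the sums were 1015 to 1242, 1355 to 1649 and 4205 to 5618 CPM. Rod markers summed to between 61723 and 86743 CPM in light damage and between 66532 and 108093 CPM in control. Of 10 rod markers 1 rose, the rod arrestin gene Sag, and 8 had negative fold changes. Of 8 cone markers 1 fell, the cone arrestin gene Arr3. Ganglion cell markers, 12 in number, had 0 calls by edgeR, DESeq2 or limma-voom and 1, Thy1, with an unadjusted p under 0.05. The median log2 fold change was 0.19 over amacrine, 0.18 over bipolar, 0.34 over Müller and 0.12 over ganglion cell markers. It was -0.13 over rod and -0.08 over cone markers, and 0.21 over the 8 horizontal cell markers.

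The called markers were compared with these lists within each library, as log2 CPM minus the mean log2 CPM of the list. The amacrine list shares Pax6, Tfap2a, Tfap2b and Slc32a1 with the horizontal cell lists below, so it does not stand for a separate cell type. Relative to amacrine markers Calb1 was at 0.72 ± 0.146 in light damage and 0.62 ± 0.0642 in control (SD, n = 5 each; exact two-sided permutation p = 0.246, adjusted p = 0.492 over 6 comparisons). Relative to bipolar markers the difference was 0.07 (exact permutation p = 0.476, adjusted p = 0.714). For Sept4 the differences were 0.01 against amacrine and -0.02 against bipolar markers (exact permutation adjusted p = 0.873 for both). No change of Calb1 or Sept4 beyond that of amacrine or bipolar markers was thus detected, which does not show that they changed alike. Relative to rod markers Calb1 was at -5.11 ± 0.127 in light damage and -5.47 ± 0.215 in control, and Sept4 at -4.29 ± 0.1099 and -4.57 ± 0.216 (SD, n = 5 each). Against rod markers the exact permutation adjusted p was 0.0476 for Calb1 and 0.0952 for Sept4. For Calb1 the unadjusted p of 0.00794 is the smallest that this test can give with 5 against 5 libraries. Both genes were taken here because they were called higher in the same libraries, so all 6 comparisons are a description and not support.

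Cells outside the neural retina were checked by their own markers. Of 8 oligodendrocyte markers, which could point to optic nerve tissue, 4 were in the table, with sums of 37.8 to 40.5 CPM in light damage and 38.8 to 42.6 CPM in control. Mag, Mobp, Olig1 and Opalin were not analysed here. Endothelial markers, 7 of 7 measured, summed to between 192 and 305 CPM in light damage and between 202 and 253 CPM in control. Markers of pigment epithelium and ciliary body, 9 of 9 measured, summed to between 169.9 and 331 CPM in light damage, with replicate 1 highest. In control they summed to between 202 and 266 CPM. Each of these 3 sums rested mostly on 1 gene. Over the 10 libraries Mbp averaged 32.1 CPM in the oligodendrocyte list, Kdr 178 CPM in the endothelial list and Aqp1 165 CPM in the last. Light damage replicate 1, the library without which both calls were lost, was the highest library for the lens and pigment epithelium sums and for Calb1. It also had high Xist, and the part of these tissues or of sex in the calls was not tested.

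Genes that build horizontal cells or serve their synapses were taken from lists beyond the 8 markers. Of 6 tested fate factors 1 fell and 0 rose by edgeR, against 7.85% of all genes called lower and 5.32% higher. At an unadjusted p under 0.05, 0 were higher. The gene that fell was Rorb, a nuclear receptor that acts upstream of horizontal cell fate and is also abundant in photoreceptors. Rorb was at 213, 227, 182, 189 and 216 CPM in light damage and at 333, 329, 277, 332 and 326 CPM in control. The drop on the log2 scale was -0.64 (SE 0.07, edgeR quasi-likelihood adjusted p = 0.000262). Without light damage replicates 1 and 2 it was -0.70 (adjusted p = 0.00413, edgeR), and the call held in all 19 alternatives. Pax6, Sall3, Tfap2a and Tfap2b did not pass, with log2 fold changes between -0.01 and 0.04, and Foxn4 and Ptf1a were not analysed here.

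At the synapse and in coupling, 2 of 8 tested genes rose and 0 fell by edgeR, against 5.32% and 7.85% of all genes. At an unadjusted p under 0.05, 3 were higher, with Gjd2 (connexin-36) beside the called pair, and 1 was lower. Over all genes these unadjusted shares were 14% and 16.3%. Without light damage replicates 1 and 2, 1 of the genes was called higher, against 0.782% of all genes. Slc32a1, the vesicular transporter that loads GABA in horizontal and amacrine cells, is also one of the amacrine markers above. It was at 107 to 128 CPM in light damage and at 86.8 to 104 CPM in control. Such an upward separation was seen in 4.31% of all genes. Its log2 fold change was 0.35 (SE 0.07, edgeR quasi-likelihood adjusted p = 0.00465). Without light damage replicates 1 and 2 it was 0.42 (adjusted p = 0.0187, edgeR), and the call held in all 19 alternatives. Panx1, a channel protein placed at horizontal cell dendrites, was at 8.81 to 10.1 CPM against 5.45 to 8.42 CPM (log2 fold change 0.41, SE 0.12, adjusted p = 0.0326 by edgeR). Its call was lost without light damage replicate 1, 2 or 3 and without control replicate 4 or 5, with adjusted p of 0.0582, 0.0788, 0.0820, 0.0652 and 0.0703 (edgeR), and it was 0.148 without light damage replicates 1 and 2 together. Gria2, an AMPA receptor subunit, did not pass, with a log2 fold change of -0.26 (adjusted p = 0.0584, edgeR).

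The 6 genes of cell spacing and adhesion had 0 calls by edgeR, DESeq2 or limma-voom and 0 with an unadjusted p under 0.05. Dscam, an adhesion molecule, had means of 48.7 ± 1.76 and 53.3 ± 4.58 CPM in the damaged and control retinas, and Sema6a, a semaphorin, 47.5 ± 1.43 and 43.9 ± 3.31 CPM (SD, n = 5 each). The 5 cytoskeletal genes also had 0 calls by these tools and 1 with an unadjusted p under 0.05, Tpm3, a tropomyosin. Vim, an intermediate filament of horizontal cells and of Müller glia, averaged 294 ± 57.4 against 200.2 ± 89.6 CPM, with control replicate 3 at 358 CPM and the other controls at or under 184 CPM. Neurofilament genes Nefl, Nefm and Nefh had log2 fold changes between 0.03 and 0.12.

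The genes with the closest profile were sought among the 15568 tested genes averaging 1 CPM or more, by the root mean square difference of centred log2 CPM over the 10 libraries. For Calb1 they were Sebox, H1f0 and Qdpr, at 0.05, 0.05 and 0.06, against a median of 0.24 over all genes. For Sept4 they were Eipr1, Usp11 and Adcy2, each at 0.05. For Prox1 the closest was Megf10, at 0.05, a receptor by which horizontal cells and starburst amacrine cells space themselves, followed by Rgs8 and Hcn4. Megf10 was between 22.9 and 27.2 CPM in light damage and between 18.0 and 28.2 CPM in control, and like Prox1 it did not pass (edgeR quasi-likelihood adjusted p = 0.291). These distances describe 10 libraries and were not tested.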

How the data were processed

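RNA of mouse retina was measured in 10 libraries, grouped by the sample titles. Values are raw counts per gene, whole numbers, as deposited by the authors. Per the submitters' processing notes, GRCm39, Bowtie2, DESeq2 1.4.5 and RSEM 1.3.1 were used, with no roles stated. Whether counts are rounded estimates or follow strand is not given in the sources. Symbols (19892 identifiers matched) and transcript lengths came from GENCODE M21, which is built on GRCm38. The promoter windows are in RefSeq's GRCm38.p6 coordinates and were not set against coordinates of the counts.

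Genes were kept by filterByExpr and scaled by TMM. The groups were compared with edgeR 4.0.16 in R 4.3.3 by the quasi-likelihood test, in which dispersion was robust and group the sole factor. P-values were adjusted by Benjamini-Hochberg across the 16852 genes tested. SEs come from the F statistic, and log2 CPM uses a prior count of 2. Alternatives were DESeq2 1.42.0, limma-voom (limma 3.58.1), other scalings and filters, no robust dispersion, a replicate block and leaving out libraries. The steps were tested on simulated counts.

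Members and lists were chosen with earlier results of these data known. Named genes are the 8 members, the called genes of each context list or the 2 with the lowest p, at most 2 genes by lowest p of a cell type list, and the 3 closest profiles per member. Further genes named were chosen after their values were seen, and some items are not reported here. No libraries were duplicates (chi-square per degree of freedom at least 5.77). Poisson intervals and the depth cover counting error only.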

Additional observations from a re-analysis of the deposited data

Results flagged for a closer look

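In control, Rorb was low in replicate 3, at 277 CPM against 326 to 333 CPM in the other 4 libraries. The gap took 0.886 of the range of the group, above the critical value of 0.71 for 5 libraries. It was the only such case in 22 groups of values checked, those of the 8 markers, Rorb, Slc32a1 and Panx1 in each condition, and chance gives about 1 in 20.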

How the results depend on the processing

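The count of 2 called markers was the same with DESeq2, limma-voom, RLE scaling, library totals alone, either other filter and no robust dispersion. It ran from 0 to 2 when 1 library was left out, with 0 without light damage replicate 1, and was 0 without light damage replicates 1 and 2. Over all genes 2219 calls became between 1127 and 2991 with 1 library left out and 403 without light damage replicates 1 and 2. Fits with fewer libraries also have fewer samples, and other causes were not tested. With library totals alone 55.7% of the calls were higher, against 40.4%. No marker changed direction in any of its 19 alternatives, where Calb1 lay between 0.22 and 0.31, Sept4 between 0.17 and 0.23 and Onecut1 between -0.53 and -0.01 on the log2 scale. With the replicate number as a block 3 markers were called, Calb1, Sept4 and Prox1 (adjusted p = 0.0281 by edgeR), and 3285 genes. Deviations of libraries with the same number correlated at 0.05 to 0.32, not all above 0.1. Libraries with different numbers were not compared in this way, so these values cannot decide whether the numbers mark pairs. The labels do not state pairs, and the main fit used none. Depth limits Onecut1 and Gja10, with as few as 13 and 25 counts.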

Other observations

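The closest profiles of the remaining markers were as follows. Lhx1 lay closest to Omg, a myelin glycoprotein gene, at a root mean square difference of 0.07 in centred log2 CPM over the 10 libraries. Onecut2 lay closest, among genes with a name of their own, to Ryr2, a calcium release channel, and Osbpl6, at 0.09 and 0.10. Ndrg1 lay closest to Ddb1, at 0.04. Gja10 and Onecut1 had no neighbour that close, with Rassf10 at 0.23 and the gene model Gm38077 at 0.20.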
